A study of Rattus norvegicus with 6 samples.

Results

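The genes of potassium channels and of their auxiliary subunits were compared between rats with bone cancer pain (BCP) and sham-operated rats. Members were the rows of the gene table whose symbol begins with Kcn, the prefix shared by potassium channel genes, and 93 of 30957 rows qualified. They carried 92 different symbols, since Kcnk6 had 2 rows. BCP rats were adult female Wistar rats that had received living Walker 256 cells, a rat breast carcinoma line, in the marrow cavity of the left tibia, and the sham-operated rats, of the same sex and strain, had received the heat-killed cells of that line through the same perforated bone. All tumors therefore came from a single line, and both groups carried the bone injury and tumor cell material. Total RNA of the lumbar enlargement on the side of the injected bone, taken on day 14 with the meninges removed, was depleted of ribosomal RNA and sequenced in 3 sham libraries and 3 BCP libraries. The sources used here do not say whether a library came from 1 rat, so the p-values below measure the spread between these libraries. The question of the comparison was which potassium channel genes differ in the spinal cord in this model of cancer pain.

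Potassium channels let potassium ions leave the cell along their gradient, which holds the membrane near rest and ends the action potential. Voltage-gated channels open on depolarization, calcium- and sodium-activated channels open after ion entry, inward rectifiers and tandem pore domain channels set the resting potential, and glial inward rectifiers also clear the potassium that active neurons release. In the dorsal horn, where signals from the injured bone arrive, opioid and GABA-B receptors act in part by opening inward rectifiers of the G-protein-gated type.

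The gene tables held 11779485 to 15004290 counts per library, with normalization factors (TMM, the trimmed mean of M values) between 0.982 and 1.02. In the following, CPM are read counts scaled to equal library size after this normalization, and FPKM are the authors' length-scaled fragment values, which also correct for gene length and were used to compare levels between genes. Markers of spinal cord cells were abundant, with 12612 to 21534 CPM of Mbp, a myelin protein, and 51.6 to 77.5 CPM of Chat, the acetylcholine-synthesizing enzyme of motor neurons, whereas the sensory neuron channel Scn10a stayed below 1 CPM. Between the groups, 5 of 7 microglial markers were higher in BCP, 7 of 7 oligodendrocyte markers were lower, 3 of 8 neuronal markers were lower and 3 of 3 red blood cell markers were higher. Of the other lists, 1 of 6 astrocyte markers was higher and 2 were lower, and 1 marker each was lower among 3 tested markers of motor neurons, 3 of oligodendrocyte precursors, 5 of nerve root and sensory neurons and 3 of skeletal muscle. None of 3 endothelial and 4 pericyte or smooth muscle markers passed the test (edgeR's quasi-likelihood test with an adjusted p under 0.05 here and below). Over all tested genes 15.8% were higher in BCP and 12.1% lower, so 1 call in a list this short is a description only.

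Most Kcn genes were detectable in the cord, at very unequal levels. Of the 93 rows, 64 had a mean above 1 FPKM over the 6 libraries, 27 exceeded 10 FPKM and 4 exceeded 100 FPKM. Those 4 were Kcna1 (167 FPKM), Kcnab2 (139.5 FPKM), Kcna2 (138 FPKM) and Kcnj10 (125 FPKM), and together they made up 43.1% of the summed FPKM of all members. Kcna1 and Kcna2 form the voltage-gated channels that lie beside the nodes of Ranvier in myelinated axons, Kcnab2 is their cytoplasmic beta subunit, and Kcnj10 is the main potassium channel of astrocytes and is also found in oligodendrocytes. Other abundant members were Kcna6 (45.8 FPKM) and Kcnc1 (45.5 FPKM), a channel of fast-firing neurons. The summed FPKM of all members was 1395 ± 36.5 (SD, n = 3) in sham libraries and 1251 ± 20.5 (SD, n = 3) in BCP libraries.

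**Figure D1:**
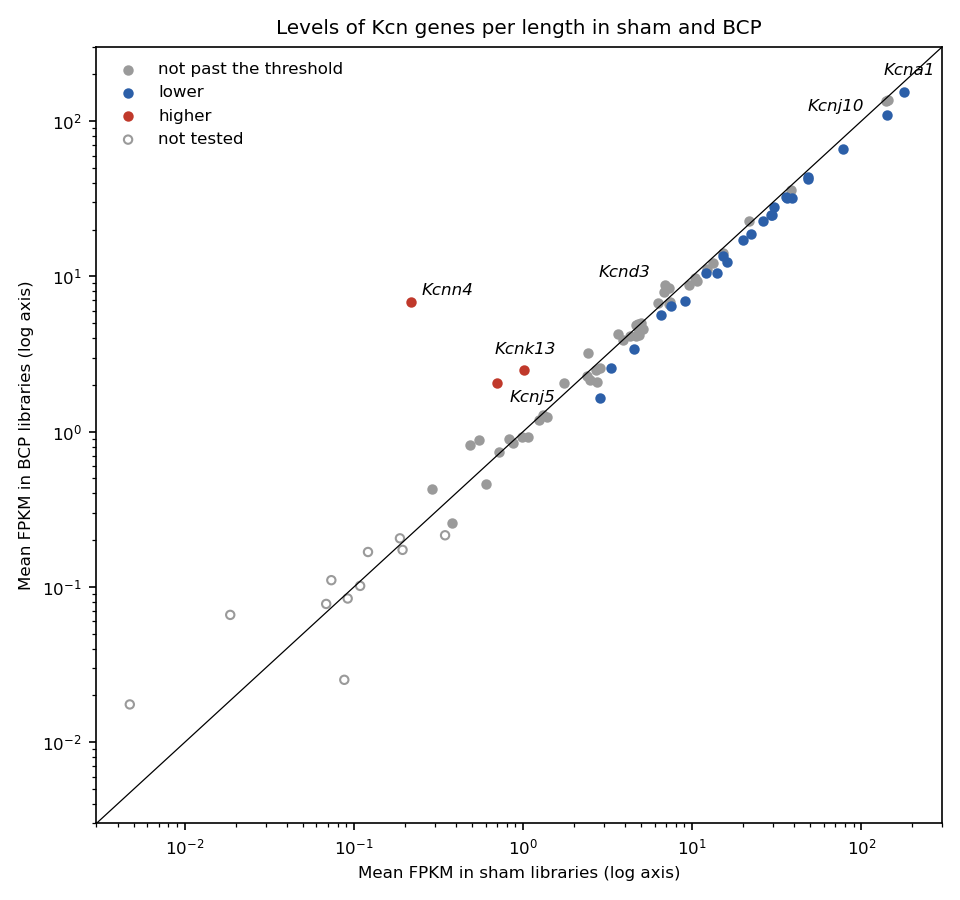
Mean FPKM of 85 Kcn genes in the 3 sham libraries (horizontal, log axis) and the 3 BCP libraries (vertical, log axis), with the line of equal levels. The 74 tested genes are filled and colored by their call, and the 3 higher genes lie above the line at low levels while the 24 lower genes lie just below it at mostly high levels.

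After the filter on low counts 74 members could be tested among 14908 genes, and 19 could not. Of the tested members 3 rose in BCP and 24 fell. The 3 that rose made up 4.05% of the tested members against 15.8% of all tested genes, and each of them also exceeded the 2-fold limit of the study, which 6.35% of all tested genes did in that direction. The 24 that fell made up 32.4% of the tested members against 12.1% of all tested genes. None of the falls reached 2-fold, a size of fall that 0.107% of all tested genes showed. An unadjusted p under 0.05 was found for 28 lower and 3 higher members, with no fall beyond 2-fold. The share of all tested genes at this unadjusted threshold is not given here. DESeq2 also called no member lower by more than 2-fold. The falls had a median of -0.27 on the log2 scale. Over the tested members the median log2 fold change was -0.18, with 58 below zero and 16 above, and over all tested genes it was -0.01. In 32 members every BCP library lay below every sham library, against 19.8% of tested genes, and in 5 members every BCP library lay above, against 21.7% of tested genes. In bulk tissue, fewer cells of a type and less RNA per cell cannot be told apart, which applies to each fall below.

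**Figure D2:**
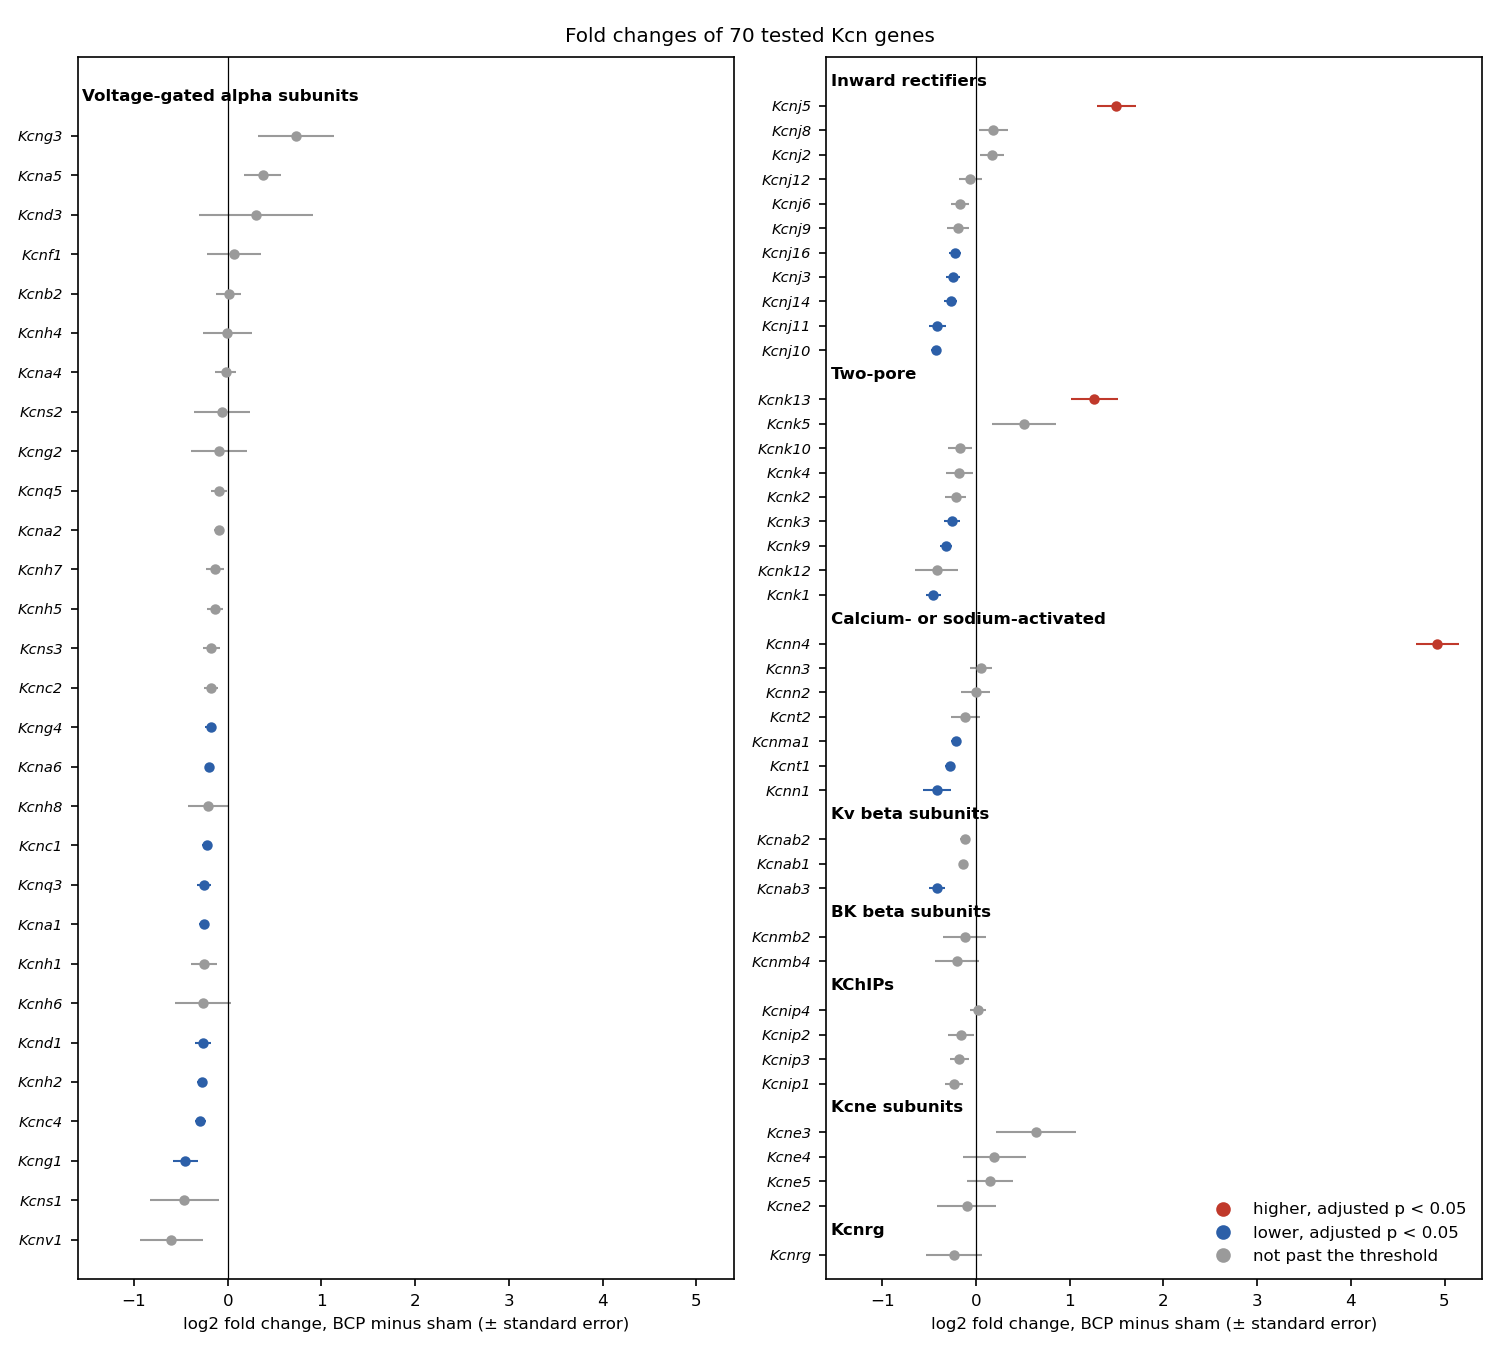
Log2 fold change (BCP minus sham) of 70 of the 74 tested Kcn genes with its approximate standard error, grouped by kind of channel. The 3 genes that rose (red) lie at 1.26 to 4.92, and the 21 shown that fell (blue) lie between -0.45 and -0.18.

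The largest change belonged to Kcnn4 (chr1:81230612-81245996, Rnor_6.0), the calcium-activated channel of intermediate conductance, known from T cells, activated microglia and red blood cells. Its sham libraries held 9, 8 and 7 counts and its BCP libraries 166, 277 and 246. In CPM these were 0.686, 0.559 and 0.473 in sham and 14.0, 19.8 and 18.6 in BCP, so that the lowest BCP library lay far above the highest sham library. The log2 fold change was 4.92, that is 30.4-fold, with an adjusted p of 4.21e-12. Its approximate SE of 0.23, derived from the test statistic, is too small, since it lies below the counting error of so few sham counts. The adjusted p rests on the same statistic and is to be read with the same reserve. Kcnn4 passed the filter on low counts through its BCP libraries alone, so its call is a description. It was no longer tested when at least 10 counts were required in every library.

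Kcnj5 (chr8:33433905-33463467), a subunit of the G-protein-gated inward rectifiers best known from the heart, had 2.75, 4.05 and 3.51 CPM in sham libraries 1, 2 and 3. In BCP libraries 1, 2 and 3 it had 11.5, 7.22 and 10.7 CPM. The groups did not overlap, and the log2 fold change was 1.50 (SE 0.21, adjusted p = 1.41e-05), or 2.82-fold. Kcnk13 (chr6:123974798-124077197), a tandem pore domain channel known to set the resting potential of microglia, had 2.44, 2.44 and 1.35 CPM in sham and 4.82, 4.43 and 5.68 CPM in BCP. Sham library 3 was the lowest of the 6 and BCP library 3 the highest, and the log2 fold change was 1.26 (SE 0.25, adjusted p = 0.00066), or 2.4-fold. On the length-corrected scale all 3 remained modest, with 6.87 ± 1.24 FPKM of Kcnn4, 2.06 ± 0.470 FPKM of Kcnj5 and 2.48 ± 0.327 FPKM of Kcnk13 in BCP (SD, n = 3 each).

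The summed CPM of the 7 microglial markers ranged from 222 to 283 in sham and from 591 to 696 in BCP, and that of the 5 T cell markers from 0.811 to 1.98 in sham and from 18.8 to 29.0 in BCP, with Cd3d at 0 in every sham library. Each of the 5 T cell markers was called higher, but Cd2, Cd3d, Cd3e and Cd3g had at most 6 counts in a sham library and passed the filter on low counts through the BCP libraries alone, so the number of calls in this list is a description. The summed red blood cell markers, Hbb, Hba1 and Alas2, went from 172 to 177 CPM in sham to 295 to 455 CPM in BCP. The part of these cells in the rise of Kcnn4, Kcnj5 and Kcnk13 was not tested.

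**Figure D3:**
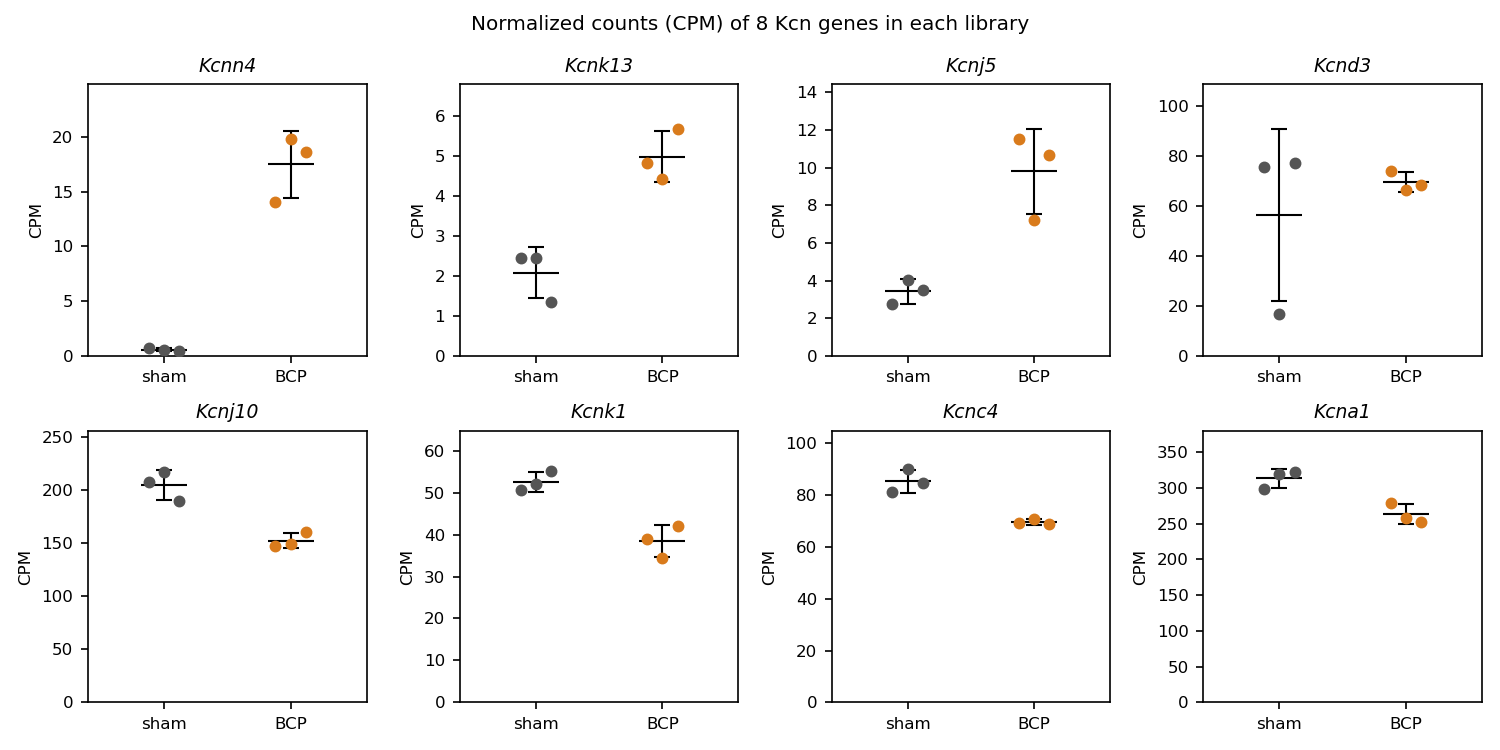
CPM of 8 Kcn genes in each of the 3 sham (gray) and 3 BCP (orange) libraries, with the group mean and SD as bars; each panel has its own axis from 0. The groups are apart for all genes shown except Kcnd3, in which sham library 2 lies at 16.8 CPM and the other 5 libraries at 66.3 to 77.0 CPM.

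Among the inward rectifiers, 11 of 15 members were tested, 1 rose (Kcnj5) and 5 fell, with a median log2 fold change of -0.19. Of those tested 45.5% fell and 9.09% rose, against 12.1% and 15.8% of all tested genes. Kcnj10 (chr13:90723092-90752581) had the smallest p-value of all members that fell. It had 208, 217 and 189.7 CPM in the sham libraries and 147, 149.6 and 161 CPM in the BCP libraries, without overlap, and fell by 25.6% (log2 fold change -0.43, SE 0.05, adjusted p = 5.21e-06). Kcnj16, which assembles with Kcnj10 in glial channels, had 68.0, 60.8 and 68.1 CPM in sham and 56.3, 55.4 and 56.9 CPM in BCP. It fell by 14.4% (log2 fold change -0.22, adjusted p = 0.0146), the groups again being apart. The call of Kcnj16 was made in 11 of 14 alternative settings. Kcnj9, which lies 12.8 kb from Kcnj10 on chromosome 13, did not pass the test (log2 fold change -0.19, adjusted p = 0.247).

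Glial markers moved beside Kcnj10 and Kcnj16. The summed CPM of the 7 oligodendrocyte markers was 38527 to 43781 in sham and 27596 to 30801 in BCP, and each marker passed the test downward, with a median log2 fold change of -0.41. Of the astrocyte markers Gfap, the intermediate filament of reactive astrocytes, rose (log2 fold change 0.80), Slc1a2, a glutamate transporter, fell (-0.37), Aldh1l1 fell (-0.26) and Gja1, the astrocytic gap junction protein, lay at -0.00 and did not pass. Slc1a3 (0.66) and Aqp4 (1.53) did not pass either, with sham library 1 low for the former and BCP library 1 high for the latter. The summed CPM of the 6 astrocyte markers was 4039 to 4317 in sham and 5839 to 7598 in BCP, a sum made up mostly of Gfap (mean CPM 2339 in sham and 4075 in BCP) and, in BCP library 1, also of Aqp4 (2415 CPM), so that it does not stand for the whole list. The part of these glial cells in the falls of Kcnj10 and Kcnj16 was not tested.

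Of the G-protein-gated subunits that opioid receptors act on, Kcnj3 fell, with 48.3, 48.0 and 49.1 CPM in sham and 42.2, 38.1 and 42.8 CPM in BCP (log2 fold change -0.24, SE 0.07, adjusted p = 0.0173). The call of Kcnj3 was made in 12 of 14 alternative settings. Kcnj6, the partner of Kcnj3, did not pass the test (log2 fold change -0.17, adjusted p = 0.229). Kcnj3 and Kcnj5, which form a channel together in the heart, thus differed in direction, and in sham libraries Kcnj3 stood at 26.1 ± 0.326 FPKM against 0.704 ± 0.137 FPKM of Kcnj5 (SD, n = 3). Kcnj11, the pore of the neuronal ATP-sensitive channel, had 27.2, 30.2 and 25.8 CPM in sham and 20.9, 20.9 and 20.9 CPM in BCP and fell by 24.8% (log2 fold change -0.41, adjusted p = 0.00192). The vascular pore of that kind, Kcnj8, did not pass (log2 fold change 0.19, adjusted p = 0.402), and neither did the sulfonylurea receptors that complete these channels, Abcc8 (log2 fold change -0.24, adjusted p = 0.249) and Abcc9 (0.20, adjusted p = 0.141). Kcnj14, a strong inward rectifier, fell with a log2 fold change of -0.27 (adjusted p = 0.0064).

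RefSeq promoter windows of the GRCr8 build, from 250 bases before to 50 bases after a gene's start, were matched by symbol for 61 of the 92 symbols and for 12 of the 27 genes that changed. They were searched on both strands for 6 motifs. GAGGAAGT is a site of PU.1, the factor of microglia and other myeloid cells, and GGGCGG is the GC box of many promoters. AP-1, induced by activity and injury, was searched as TGANTCA. TGACGTCA is the site of CREB in its full form, and TTCNNNGAA is that of the STAT factors, which act downstream of cytokines. The TATA box was searched as TATAAA. The letters of different motifs did not overlap in the windows shown. The windows of Kcnk13 (chr6:124971559-124971858, + strand) and Kcnj5 (chr8:39011047-39011346, - strand), 2 of the 3 genes that rose, and of Kcnj10 (chr13:87334260-87334559, + strand), the fall with the smallest p-value, are printed 5′ to 3′ on the gene's strand, with matches in capitals.
Kcnk13: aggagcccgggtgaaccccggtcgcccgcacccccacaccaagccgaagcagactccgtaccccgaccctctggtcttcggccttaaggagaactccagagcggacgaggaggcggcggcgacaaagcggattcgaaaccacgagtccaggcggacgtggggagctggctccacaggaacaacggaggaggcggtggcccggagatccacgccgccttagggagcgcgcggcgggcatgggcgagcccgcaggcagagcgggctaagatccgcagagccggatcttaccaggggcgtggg
Kcnj5: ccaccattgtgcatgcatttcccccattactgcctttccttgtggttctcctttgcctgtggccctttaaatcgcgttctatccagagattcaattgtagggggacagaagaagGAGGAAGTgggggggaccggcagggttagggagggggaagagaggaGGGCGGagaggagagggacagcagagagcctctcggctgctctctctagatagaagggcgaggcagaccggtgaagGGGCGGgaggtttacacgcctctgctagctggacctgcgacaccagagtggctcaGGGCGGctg
Kcnj10: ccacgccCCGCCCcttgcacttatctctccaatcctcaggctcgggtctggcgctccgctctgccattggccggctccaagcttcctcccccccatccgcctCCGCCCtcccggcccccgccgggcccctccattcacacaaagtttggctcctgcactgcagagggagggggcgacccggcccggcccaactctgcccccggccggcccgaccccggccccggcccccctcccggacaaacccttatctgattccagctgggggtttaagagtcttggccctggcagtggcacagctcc

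The Kcnk13 window held none of these motifs and was 69% G and C. The Kcnj5 window held GAGGAAGT 136 bases before the start and GGGCGG at 90 and 14 bases before and 41 bases after it. In the Kcnj10 window the GC box occurred on the opposite strand, as CCGCCC, at 243 and 148 bases before the start. Over all 33469 windows of this length, 2.42% held the PU.1 letters and 33.1% the GC box, and of 67 windows of Kcn genes 3 held the former and 33 the latter. AP-1 letters were in 3, STAT letters in 8, TATA letters in 2 and CREB letters in 0 of the Kcn windows, and in 7.33%, 8.87%, 14.2% and 1.83% of all windows. A match describes letters in the window and not a bound site, and a Kcnn4 window was not used here.

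Of the tandem pore domain channels, which carry background potassium currents, 9 of 15 members were tested, 1 rose (Kcnk13) and 3 fell. This was 11.1% rising and 33.3% falling, against 15.8% and 12.1% of all tested genes. Kcnk1 (chr19:58823814-58862926), a weakly inward rectifying member found in astrocytes and neurons, had 50.6, 52.0 and 55.2 CPM in sham and 39.1, 34.4 and 42.0 CPM in BCP. The groups were apart, and Kcnk1 fell by 26.9% (log2 fold change -0.45, SE 0.08, adjusted p = 0.000213). Kcnk9 and Kcnk3, which acid and volatile anesthetics modulate, fell as well. Kcnk9 had 62.8, 71.4 and 63.2 CPM in sham and 54.5, 52.3 and 51.7 CPM in BCP (log2 fold change -0.32, adjusted p = 0.00137) and was, at 35.3 FPKM, the most abundant member of this family per length. Kcnk3 had a log2 fold change of -0.25 (adjusted p = 0.0294), with its call made in 9 of 14 alternative settings. Kcnk12, the closest relative of Kcnk13, did not pass the test, with a log2 fold change of -0.42 (SE 0.23, adjusted p = 0.193). Kcnk2, a mechanically gated member, did not pass either (log2 fold change -0.21, adjusted p = 0.177).

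Of the calcium- and sodium-activated channels 7 of 8 members were tested, 1 rose (Kcnn4) and 3 fell. This was 14.3% rising and 42.9% falling, against 15.8% and 12.1% of all tested genes. Kcnma1, the large-conductance channel that both voltage and calcium open, had 94.0, 98.0 and 94.6 CPM in sham and 85.8, 80.1 and 81.7 CPM in BCP, without overlap, and fell by 13.6% (log2 fold change -0.21, adjusted p = 0.00588). Kcnt1, the sodium-activated channel of neurons, had 138, 139.8 and 141 CPM in sham and 120.4, 107 and 117 CPM in BCP and fell by 17.7% (log2 fold change -0.28, SE 0.05, adjusted p = 0.00037). The small-conductance channels Kcnn1, Kcnn2 and Kcnn3 carry the afterhyperpolarization of neurons. Kcnn1 fell (log2 fold change -0.42, adjusted p = 0.0459), and its call was made in 5 of 14 alternative settings. Kcnn3 lay at 0.06 (SE 0.12) and Kcnn2 at -0.00 (SE 0.16), neither past the test.

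The voltage-gated alpha subunits were the largest group, with 38 members and 33 tested, of which none rose and 12 fell. The falls made up 36.4% of those tested, against 12.1% of all tested genes. Their median log2 fold change was -0.18, and 28 of the 33 lay below zero. By subfamily, 2 of 5 tested Kcna genes, 2 of 4 Kcng genes, 1 of 2 Kcnd genes and 1 of 7 Kcnh genes fell. None of 3 Kcns, 1 Kcnf and 1 Kcnv genes passed the test. These counts are small, and the 14.3% of Kcnh genes that fell lay near the 12.1% of all tested genes. Beside these falls, 3 of 8 neuronal markers fell, Rbfox3 (log2 fold change -0.34), Eno2 (-0.24) and Stmn2 (-0.19), and the summed CPM of the 8 markers was 3293 to 3461 in sham and 3055 to 3335 in BCP. Snap25 made up most of that sum (mean CPM 1888 in sham and 1811 in BCP) and did not pass the test (log2 fold change -0.06). The median log2 fold change over the 8 markers was -0.10, and the part of neuronal content in the falls was not tested.

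The Kcnc channels open and close rapidly, which lets neurons fire at high frequency. Kcnc4 had 81.1, 89.9 and 84.4 CPM in sham and 69.0, 70.8 and 68.8 CPM in BCP and fell by 18.3% (log2 fold change -0.29, SE 0.06, adjusted p = 0.00073). Kcnc1 had 188, 206 and 192 CPM in sham and 173, 163 and 164 CPM in BCP and fell by 14.5% (log2 fold change -0.23, adjusted p = 0.0016). Neither gene had groups that overlapped. Kcnc2 had a log2 fold change of -0.18 and did not pass the test (adjusted p = 0.0818).

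Among the Kcna channels, which hold axons and low-threshold neurons back from repetitive firing, Kcna1 (chr4:159190804-159192526) had 299, 319 and 322 CPM in sham and 279, 258 and 253 CPM in BCP. It fell by 16.1% (log2 fold change -0.25, SE 0.05, adjusted p = 0.000502), without overlap. Kcna6, 61.4 kb from Kcna1 on chromosome 4, had 339.7, 319.7 and 326 CPM in sham and 283, 283 and 294 CPM in BCP and fell by 12.8% (log2 fold change -0.20, adjusted p = 0.00179). Kcna5, 111.8 kb away on the other side of Kcna1, had a log2 fold change of 0.37 and did not pass (adjusted p = 0.172). Kcna2, the axonal partner of Kcna1, had 316, 352 and 331 CPM in sham and 328, 307 and 299 CPM in BCP, with overlapping groups (log2 fold change -0.10, SE 0.05, adjusted p = 0.161).

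The Kcnq channels carry the M current, a slow brake on firing. Kcnq3 had 47.7, 46.6 and 46.1 CPM in sham and 40.6, 36.0 and 41.5 CPM in BCP and fell by 15.9% (log2 fold change -0.25, SE 0.08, adjusted p = 0.018), with its call made in 12 of 14 alternative settings. Kcnq5, a relative in many brain regions, did not pass the test (log2 fold change -0.09, adjusted p = 0.466). Kcnh2, the channel of cardiac repolarization that is also expressed in the brain, had 137, 140.3 and 129 CPM in sham and 113, 118 and 105 CPM in BCP (log2 fold change -0.28, adjusted p = 0.000651).

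Kcng1, Kcng4 and Kcnd1 also fell, and like Kcnk3 they are named after their values were seen. Kcng1 and Kcng4 are silent subunits that form channels only together with other alpha subunits. Kcng1 had 13.3, 11.7 and 13.0 CPM in sham and 9.13, 9.86 and 8.71 CPM in BCP (log2 fold change -0.45, adjusted p = 0.0134), and Kcng4 had 156, 148 and 137 CPM in sham and 138, 131 and 122 CPM in BCP (log2 fold change -0.18, adjusted p = 0.0247). Kcng4 was the only member that fell whose groups overlapped, the other 23 being apart. Kcnd1, of the A-type channels that delay firing, had a log2 fold change of -0.26 (adjusted p = 0.0265). The calls of Kcng1, Kcng4 and Kcnd1 were made in 12, 8 and 7 of 14 alternative settings. The value of Kcnd3, a relative of Kcnd1, rested on 1 library. Kcnd3 had 75.4, 16.8 and 77.0 CPM in the sham libraries and 73.8, 66.3 and 68.4 CPM in the BCP libraries, sham library 2 standing far below the rest (240 counts), and its log2 fold change was 0.30 with all libraries (SE 0.61, adjusted p = 0.776) and -0.13 without that library. Kcna3 and Kcnd2 were not analysed here.

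**Figure D4:**
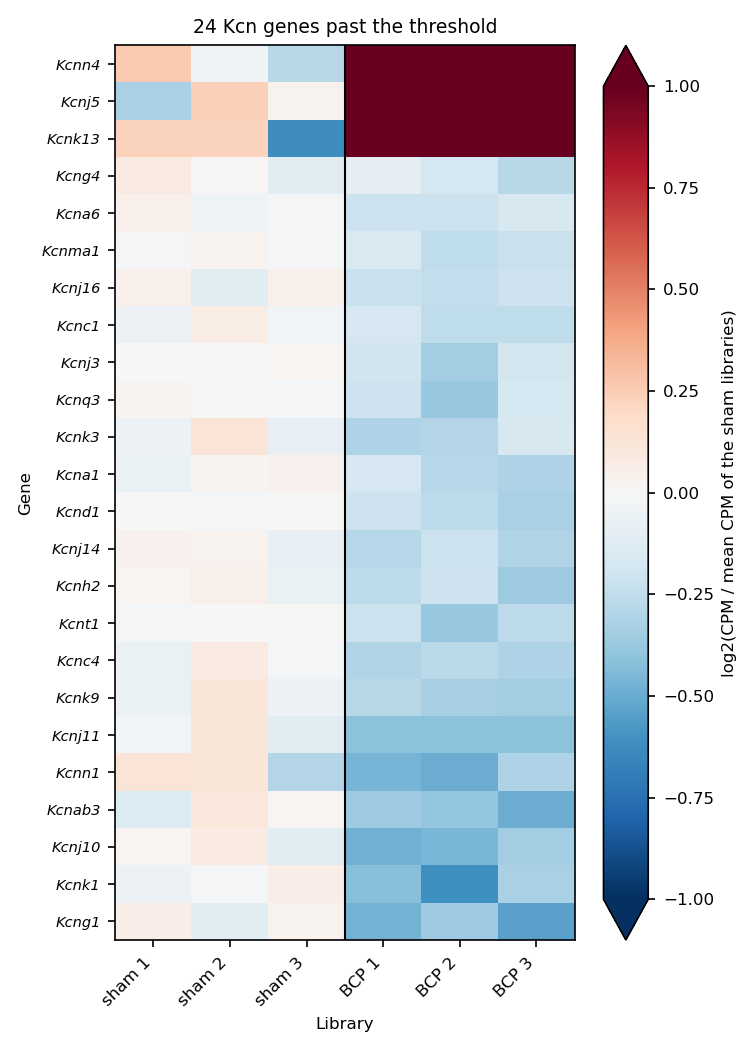
Log2 ratio of CPM to the mean of the sham libraries for 24 of the 27 Kcn genes that changed (rows) in each of the 6 libraries (columns), with colors ending at 1 and -1. In the 21 lower genes shown the BCP libraries run from -0.61 to -0.10 and the sham libraries from -0.29 to 0.13.

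Of the auxiliary subunits only Kcnab3 passed the test. Kcnab3, a cytoplasmic beta subunit of the Kcna channels, fell, with 31.2, 37.0 and 34.9 CPM in sham and 26.7, 26.3 and 24.3 CPM in BCP (log2 fold change -0.42, SE 0.09, adjusted p = 0.00131). The far more abundant Kcnab2 had 289, 312 and 305 CPM in sham and 293, 289 and 254 CPM in BCP, with overlap (log2 fold change -0.12, adjusted p = 0.123), and Kcnab1 lay at -0.13 (adjusted p = 0.0574). None of the 4 Kcnip genes, calcium-binding partners of the Kcnd channels, passed. Kcnip3, a transcriptional repressor as well as a channel partner, had a log2 fold change of -0.18 (adjusted p = 0.235), and Kcnip4, the most abundant of them at 22.1 FPKM, had 0.02 (SE 0.08). Of 4 tested Kcne genes, small membrane partners of voltage-gated channels, none passed, and 3 lay above zero. Kcne3 had a log2 fold change of 0.64 with an SE of 0.42, and Kcne5, the most abundant Kcne gene at 7.84 FPKM, had 0.15 (SE 0.24). Kcnmb2 and Kcnmb4, beta subunits of the Kcnma1 channel, did not pass (-0.12 and -0.20), nor did Kcnrg, a soluble regulator of channel assembly (-0.23, adjusted p = 0.617).

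The 19 rows that could not be tested comprised 7 with a count of 0 in every library and 12 with few counts, none above 13 in a library. The rows at 0 were Kcnj1, Kcnk18, Kcne1, Kcnu1, Kcnmb3 and both rows of Kcnk6. A count of 0 allows up to 3 counts, or 0.255 CPM in the smallest library before normalization, as far as counting error goes. How the counting treated reads that match several places is not known, so this limit was not applied to Kcnk6 with its 2 rows. The other genes at 0 were not detectable at this depth.

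Proteins that bind, anchor or position potassium channels were examined as a list together with the Na,K-ATPase, the pump that restores the potassium gradient. Of 39 names 38 were in the table and 32 were tested, of which 17 fell (53.1% against 12.1% of all tested genes) and 1 rose. Among the partners 12 of 22 fell. They included Cntn2 (478, 497 and 491 CPM in sham, 400.4, 393 and 388 CPM in BCP, log2 fold change -0.31, adjusted p = 8.65e-06), a glycoprotein of the juxtaparanode, where it holds the Kcna channels, and Cntnap1 (-0.25), a protein of the paranode. Adam22 (-0.19), Adam23 (-0.13) and their ligands Lgi1 (-0.25), Lgi2 (-0.22) and Lgi3 (-0.32) fell too, as did the scaffold Dlg4 (-0.30) and the ankyrins Ank2 (-0.19) and Ank3 (-0.37), of which the latter anchors channels at the axon initial segment. Dpp6, an auxiliary protein of the Kcnd channels, fell with a log2 fold change of -0.20. Relatives of these genes on the list did not pass, namely Lgi4 (-0.16, adjusted p = 0.056), Dlg1 (-0.04), Dlg2 (-0.08) and Dpp10 (0.00). The calls of Adam22 and Adam23 were made in 10 and 5 of 14 alternative settings. Those of the other partners named here as lower were made in all 14. Values in parentheses without a unit are log2 fold changes.

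Of 10 tested pump genes 5 fell. Of its beta subunits, which carry the pump to the membrane, Atp1b1 had 1393, 1466 and 1455 CPM in sham and 1334, 1278 and 1296 CPM in BCP (log2 fold change -0.14, adjusted p = 0.0099). The glial Atp1b2 had 1439, 1381 and 1473 CPM in sham and 1261, 1138 and 1185 CPM in BCP (log2 fold change -0.26, SE 0.04, adjusted p = 0.000128). In both the groups were apart, and the call of Atp1b1 was made in 11 of 14 alternative settings. The remaining beta subunit on the list, Atp1b3, did not pass (log2 fold change 0.09, adjusted p = 0.239), with overlapping groups. Fxyd5, a small regulator of the pump, was the gene that rose, from 6.41, 7.82 and 7.91 CPM in sham to 12.3, 15.5 and 15.1 CPM in BCP (log2 fold change 0.95, adjusted p = 3.77e-05). Aqp4, the water channel of astrocyte endfeet where Kcnj10 also lies, did not pass. BCP library 1 held 2415 CPM and the other 5 libraries 354 to 379 CPM, so the log2 fold change of 1.53 rested on that library.

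The other ion channel families were counted in the same fit. Of 21 tested Cacn genes of voltage-gated calcium channels 12 fell and 0 rose (median log2 fold change -0.21), of 12 tested Scn genes of voltage-gated sodium channels 5 fell and 1 rose (median -0.13), and of 4 tested Hcn genes of pacemaker channels 1 fell and 0 rose (median -0.22). Over all tested genes 12.1% fell and 15.8% rose. A difference between these families and the Kcn genes was not tested.

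Within 10 kb of a Kcn gene lay 130 lncRNA transcripts, beside 57 of the genes, and 61 of them overlapped the gene. Of these transcripts 81 were tested among 12157 lncRNAs. None rose, against 1.57% of all tested lncRNAs, and 3 fell (3.70%), against 0.395%. An unadjusted p under 0.05 was found for 16, all of them lower in BCP (19.8% of those tested), against 6.04% of all tested lncRNAs that were lower at this threshold. Beside Kcnj10, NONRATT008471.2 (chr13:90752842-90753344, 261 bases from the gene) had 553, 571 and 571 CPM in sham and 449, 466 and 430.4 CPM in BCP (log2 fold change -0.33, adjusted p = 0.0213). NONRATT008472.2 (chr13:90753435-90756314, 854 bases from Kcnj10) had 4758, 4392 and 4473 CPM in sham and 3844, 3633 and 3831 CPM in BCP (log2 fold change -0.27, adjusted p = 0.0156). Beside Kcna1, NONRATT021865.2 (chr4:159185630-159188308, 2496 bases away) had 2958, 3118 and 3032 CPM in sham and 2718, 2519 and 2557 CPM in BCP (log2 fold change -0.22, adjusted p = 0.0295). In all 3 the groups were apart, and the neighboring gene had fallen as well.

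Of 35 tested lncRNAs near a Kcn gene that fell, 26 lay below zero (median log2 fold change -0.23), and of the 46 near other Kcn genes 27 did (median -0.05). The median over all tested lncRNAs was -0.01. This grouping used the calls of the Kcn genes in the same libraries. None of the tested lncRNAs lay near Kcnn4, Kcnj5 or Kcnk13. Whether the counting used the strand is not stated, so reads of a gene and of an overlapping or adjoining transcript may not be separated. The number of lower lncRNAs rested on single libraries, as it was 1 without sham library 1 or 2, and 0 without sham library 3, BCP library 2 or BCP library 3.

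Of the 27 members that changed, 18 were called in every alternative setting that tested them. These were the 3 that rose and 15 that fell, among them Kcnj10, Kcnj11, Kcnj14, Kcnk1, Kcnk9, Kcnma1, Kcnt1, Kcna1, Kcna6, Kcnc1, Kcnc4, Kcnh2 and Kcnab3. The other 9, all of them lower, lost their call in at least 1 setting, and no called member changed direction in any of the settings run. Among the 3 that rose, Kcnn4 passed the filter on low counts through its BCP libraries alone. The number of members that fell was 19 with library size alone as the scaling and 28 with upper-quartile normalization, and among the fits that left out a library it was lowest, at 16, without BCP library 2.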

How the data were processed

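RNA-seq of 3 sham and 3 BCP libraries was used, grouped by the labels. After filtering with Seqtk, the authors aligned the reads to the Rnor_6.0 genome (HISAT2 2.0.4) and computed FPKM (StringTie 1.3.0). They deposited raw counts and FPKM for each gene and each lncRNA transcript. Which program made the counts, whether it used the strand and how it handled multi-mapping reads are not given in the sources used here.

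The deposited counts went into edgeR 4.0.16 (R 4.3.3) with filterByExpr, TMM factors and a robust quasi-likelihood fit with condition as its term, genes and lncRNAs separately, with Benjamini-Hochberg adjustment over all features tested. A call was an adjusted p under 0.05, and the study's limit of 2-fold was counted in addition. CPM are TMM-normalized, and FPKM of the authors served for levels only. SE is an approximate standard error, the absolute log2 fold change divided by the square root of the F statistic of the test. The biological coefficient of variation was 7.72% for genes and 33.4% for lncRNAs. Counts of libraries of 1 group differed by more than sampling noise (chi-square per degree of freedom 3.48 to 6.04), so no library was a copy of another. Scripts were tested on simulated data.

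The members, the lists and the tests were chosen with earlier results of these data known. Named genes were every member beyond 2-fold, up to 15 per direction by p-value, the most abundant member of each family, textbook members, and the partners and neighboring lncRNAs that were called. Alternatives were DESeq2 1.42.0, the likelihood ratio test, other normalizations and filters, a replicate block and each library left out. Marker and partner lists came from background knowledge, and of their names Pecam1, Cntnap2 and Hba-a2 were not analysed here. Some genes that the naming rule selects are not reported here.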

Additional observations from a re-analysis of the deposited data

How the results depend on the processing

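The number of members that rose was 3 in every alternative run except that with at least 10 counts in every library, where Kcnn4 was not tested and 2 rose. The number that fell was 21 with DESeq2, 22 with the likelihood ratio test, 23 with the replicate block, 19 with library size only, 28 with upper-quartile normalization and 16 to 25 with each library left out. The median log2 fold change of the members was -0.13 with library size only, where the median of all genes was 0.03, and -0.19 to -0.15 with each library left out. Partner and pump genes that rose numbered 1 to 2, and lower lncRNAs near Kcn genes 0 to 2, with each library left out. Lower lncRNAs numbered 0 with the likelihood ratio test and 1 with the replicate block. Replicate numbers did not pair the libraries, as the correlations of deviations between same-numbered libraries were -0.105, 0.044 and -0.035. The block gave 3814 called genes against 4157 without it. Of 880 values of single features under alternatives, 779 kept direction and call, 84 lost the call, 2 gained it and 15 changed sign, all of them in genes that were not called. Kcnn2 became 0.00 with DESeq2, RLE size factors and the block, 0.04 with library size only and 0.01 with at least 10 counts, and Kcnip4 became -0.01 with upper-quartile normalization. With each library left out, Kcnn2 ranged from -0.10 to 0.12, Kcnip4 from -0.08 to 0.11, Kcnn3 from -0.05 to 0.17, Kcne5 from -0.03 to 0.53 and Kcnd3 from -0.13 (without sham library 2) to 0.60. The cause of these changes was not tested. Genes needed about 10 counts in at least 3 libraries to be tested.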
